A study of Homo sapiens with 6 samples.

Results

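The genes described here are the 9 that encode the hypoxia-inducible factor (HIF) and the proteins that tie its activity to oxygen: the alpha subunits HIF1A and EPAS1, the beta subunits ARNT and ARNT2, the prolyl hydroxylases EGLN1, EGLN2 and EGLN3, the asparaginyl hydroxylase HIF1AN, and VHL. They were taken by name, for their function, with earlier results of these data known. All 9 were found among the 61228 gene names of the deposited count table, and all 9 were among the 14704 genes with enough counts to be tested.

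HIF is a pair of an oxygen-regulated alpha subunit and a constant beta subunit. When oxygen is present, the EGLN enzymes hydroxylate prolines of the alpha subunit, the VHL protein binds the hydroxylated form, and the ubiquitin ligase around VHL marks it for degradation. HIF1AN hydroxylates an asparagine that the alpha subunit needs to recruit its coactivators. EGLN1 and EGLN3 are themselves HIF target genes, so their transcripts form a feedback loop. Because the alpha subunits are controlled mainly as proteins, and transcripts alone were measured here, the values below describe mRNA and not HIF protein or hydroxylase activity.

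The RNA came from MDA-MB-231, a human triple-negative breast cancer line with mesenchymal features, cultured within 3D collagen I gels and sequenced after poly(A) selection. The control group (3 libraries) had been nucleofected with Cas9 and control guide RNAs, and the knockout group (KO, 3 libraries) with Cas9 and guides against ETV1, ETV4 and ETV5, transcription factors of the PEA3 branch of the ETS family. Both groups were thus exposed to Cas9 and cultured in the same kind of gel. The titles of the KO samples name ETV4 alone, and their library names carry an unexplained tag, c39. Whether the KO libraries come from a single clone is not stated, and in that case a difference between the groups could not be told apart from a property of that clone. Nor is it stated that replicates are separate cultures, so the p-values reflect only how far these samples scatter, possibly for technical reasons. The labels do not tie a collagen concentration to a sample and give no oxygen level.

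Library totals ran from 18042601 to 23232770 counts. Replicate 3 of both groups stood apart: the chi-square per degree of freedom between replicates of a group was 3.88 and 5.76 for replicates 1 and 2 of control and KO, and between 17.8 and 18.8 for pairs with replicate 3. The targeted transcripts ETV1 and ETV4 were lower in KO (134.6 to 155 against 213 to 238 CPM, and 61.5 to 65.5 against 91.4 to 95.3 CPM), and ETV5 was not (112 to 114 against 108 to 117 CPM). CPM is the count per 1000000 counts of the library after TMM scaling. Of the markers of the line, VIM, CD44, EGFR, AXL and CAV1 were abundant, SPARC was near 0, and ESR1, PGR, CDH1 and KRT5 were at or near 0. ERBB2 and EPCAM, listed as low in this line, measured 61.2 and 19.7 CPM in control. Among markers of other cells, summed levels ran from 3.66 to 4.04 CPM in control and 2.15 to 2.91 CPM in KO for 5 fibroblast genes, from 3.40 to 5.39 and 4.02 to 4.57 CPM for 4 leukocyte genes, and from 9.73 to 11.01 and 5.78 to 8.46 CPM for 4 endothelial genes. The endothelial gene PECAM1 fell in KO (6.76 ± 0.63 to 3.74 ± 0.95 CPM, SD, n = 3, edgeR adjusted p = 0.0250, and up to 0.105 when control replicate 1, control replicate 2 or KO replicate 1 was left out). KDR, of the same list, did not pass (3.68 ± 0.17 and 3.27 ± 0.50 CPM, edgeR adjusted p = 0.598). VWF had at most 4 counts in a library, and CDH5 and CD3E had no count in any library. In bulk RNA, fewer cells of a kind and less RNA per cell cannot be told apart, and the part of these genes in the results below was not tested.

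The promoters of the prolyl hydroxylases EGLN1 and EGLN3 are shown because these are the hydroxylase genes whose transcripts were lower in every KO library than in any control, and that of HIF1AN because it held the ETS motif most often. The windows run from 250 bases before to 50 bases after the start of the gene in RefSeq (GRCh38.p14) and are written 5′ to 3′ on the strand of the gene. For EGLN1 (chr1:231422238-231422537, minus strand) and EGLN3 (chr14:33951025-33951324, minus strand), capitals mark the HIF core motif, searched as ACGTG and GCGTG on both strands. For HIF1AN (chr10:100535693-100535992, plus strand), capitals mark the ETS motif, searched as CCGGAA and AGGAAG on both strands.
EGLN1: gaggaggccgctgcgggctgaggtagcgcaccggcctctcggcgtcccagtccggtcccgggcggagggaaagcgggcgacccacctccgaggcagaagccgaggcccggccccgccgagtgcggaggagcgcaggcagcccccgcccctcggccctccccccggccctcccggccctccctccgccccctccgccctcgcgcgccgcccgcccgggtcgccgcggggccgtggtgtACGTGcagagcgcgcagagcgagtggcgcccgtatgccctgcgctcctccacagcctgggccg
EGLN3: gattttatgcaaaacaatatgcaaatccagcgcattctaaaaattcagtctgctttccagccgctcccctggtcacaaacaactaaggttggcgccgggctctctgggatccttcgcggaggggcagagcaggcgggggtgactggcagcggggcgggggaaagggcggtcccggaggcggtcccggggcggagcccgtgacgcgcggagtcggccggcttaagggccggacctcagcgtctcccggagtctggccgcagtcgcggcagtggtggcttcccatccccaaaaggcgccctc
HIF1AN: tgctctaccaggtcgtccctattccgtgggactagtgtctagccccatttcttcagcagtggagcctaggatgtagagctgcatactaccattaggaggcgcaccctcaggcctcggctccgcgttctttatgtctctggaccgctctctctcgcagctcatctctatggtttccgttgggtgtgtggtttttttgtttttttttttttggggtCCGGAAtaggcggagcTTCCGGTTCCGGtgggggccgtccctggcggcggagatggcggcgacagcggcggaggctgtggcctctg

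The EGLN1 window held 1 match to ACGTG, which begins 13 bases before the start, and none to the ETS motifs. The EGLN3 window held neither motif. HIF1AN had 3 matches to CCGGAA, beginning 36, 20 and 14 bases before the start, and none to the HIF core. Among the 7 genes of the set with a window, 4 (EGLN1, EGLN2, EPAS1 and HIF1A) held ACGTG or GCGTG, and 2 (HIF1AN and EGLN2) held CCGGAA or AGGAAG. In all 35116 RefSeq windows of 300 bases, 21.4% held ACGTG, 36.5% GCGTG and 48.4% at least 1 of them, and 17.2% held CCGGAA, 33.6% AGGAAG and 45.4% at least 1 of these. A match describes letters in this window and not a bound site. The lack of a match, as in EGLN3, says nothing about sites outside the window.

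The comparison of KO with control asks whether the oxygen-sensing machinery itself was expressed differently when the ETV genes were targeted. EGLN3 fell to 36.0% of its control level. It passed edgeR's quasi-likelihood test, with Benjamini-Hochberg adjustment over all genes and a threshold of 0.05, and the other 8 did not. Over all genes tested, 9.70% passed, 6.42% lower and 3.28% higher, so 1 of 9 is near that background. The values of the 3 control and 3 KO libraries did not overlap for 4 of the 9 (HIF1A and EPAS1, both higher in KO, and EGLN1 and EGLN3, both lower), against 31.7% of all genes tested (16.8% with KO the lower). The median log2 fold change of the 9 was -0.03, against 0.00 over all genes.

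**Figure D1:**
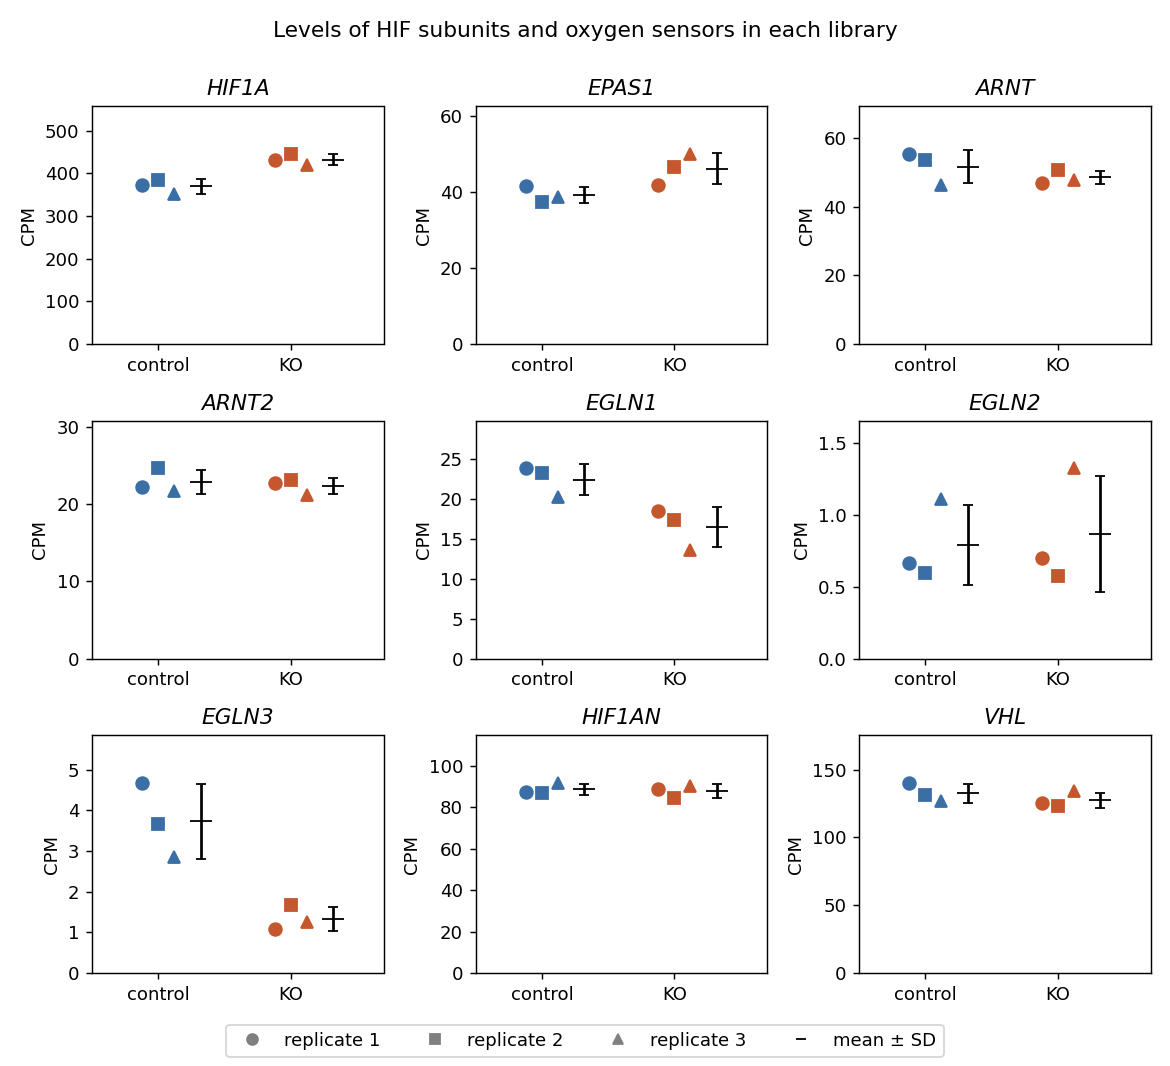
Level of each of the 9 genes in each library, in CPM on a linear axis from 0. Marker shapes give the replicate number, and the bars beside them the mean and SD of 3 libraries. HIF1A, EPAS1, EGLN1 and EGLN3 have no overlap between the groups, and EGLN3 in KO sits between 1.07 and 1.66 CPM, below the lowest control at 2.85 CPM.

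The alpha subunits were slightly higher in the KO libraries, but neither passed the test in the group comparison. HIF1A (ENSG00000100644, GRCh38 chromosome 14, 61695513 to 61748258, plus strand), the widely expressed alpha subunit, measured 373, 385 and 351 CPM in control replicates 1, 2 and 3 and 431, 446 and 420 CPM in KO replicates 1, 2 and 3. Every KO library was above every control library. The log2 fold change was 0.23 (SE 0.06, 95% interval 0.08 to 0.37, edgeR adjusted p = 0.0572), which is 1.17-fold. The call depended on the setting. With the replicate number as a block the adjusted p was 1.09e-07 in edgeR, with DESeq2 it was 0.0139, with total-count scaling 0.0373, without KO replicate 3 it was 0.0298 and without both replicate 3 libraries 2.93e-04 in edgeR, while HIF1A did not pass without any other single library.

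EPAS1 (ENSG00000116016, chromosome 2, 46297407 to 46386697, plus strand) encodes HIF-2-alpha, the alpha subunit known from endothelium and clear-cell renal cancer. Its values were 41.5, 37.3 and 38.7 CPM in control and 41.8, 46.5 and 50.03 CPM in KO. The groups met closely, the highest control and the lowest KO library being both of replicate 1. The log2 fold change was 0.24 (SE 0.08, 95% interval 0.05 to 0.43, edgeR adjusted p = 0.117), and the replicate block gave adjusted p = 0.00291 in edgeR. EPAS1 did not pass in the other alternatives run.

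The balance of the alpha subunits did not differ measurably. The log2 ratio of EPAS1 to HIF1A counts within a library was -3.24 ± 0.11 in control and -3.23 ± 0.15 in KO (SD, n = 3, exact two-sided permutation p = 0.90). With 3 libraries against 3 the smallest p this test allows is 0.10. The difference of 0.01 was smaller than the spread between replicates in either group.

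The beta subunits ARNT and ARNT2 overlapped between groups. ARNT (ENSG00000143437, chromosome 1, 150809713 to 150876599, minus strand), the general partner of the bHLH-PAS factors, measured 55.5, 53.6 and 46.3 CPM in control and 47.1, 50.9 and 47.8 CPM in KO. Its log2 fold change was -0.09 (95% interval -0.28 to 0.10, edgeR adjusted p = 0.551). ARNT2 (ENSG00000172379, chromosome 15, 80404382 to 80597933, plus strand), a close relative best known from the nervous system, ran from 21.7 to 24.7 CPM in control and from 21.2 to 23.1 CPM in KO. Its log2 fold change was -0.03 (95% interval -0.22 to 0.16, edgeR adjusted p = 0.858). The log2 ratio of ARNT2 to ARNT was -1.17 ± 0.12 in control and -1.12 ± 0.06 in KO (SD, n = 3, exact two-sided permutation p = 0.70). Neither beta subunit passed with the replicate block.

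Of the 3 prolyl hydroxylases, EGLN3 fell, EGLN1 was lower without passing the test, and EGLN2 had too few counts to tell. EGLN3 (ENSG00000129521, chromosome 14, 33924227 to 33951074, minus strand) encodes PHD3, the family member whose transcript is most strongly induced by HIF in many cells. It measured 4.68, 3.66 and 2.85 CPM in control (99, 68 and 67 counts) and 1.07, 1.66 and 1.27 CPM in KO (20, 32 and 23 counts). The groups were clearly separated, although the control values themselves spread from 2.85 to 4.68 CPM. EGLN3 fell 2.78-fold (log2 fold change -1.48, SE 0.26, 95% interval -2.07 to -0.88, edgeR adjusted p = 0.00956). It passed in each of the 14 alternative fits, with adjusted p of up to 0.0465 (without KO replicate 1).

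EGLN1 (ENSG00000135766, chromosome 1, 231363756 to 231422287, minus strand) encodes PHD2, the main HIF prolyl hydroxylase in normal oxygen. Its values were 23.8, 23.2 and 20.2 CPM in control and 18.5, 17.3 and 13.6 CPM in KO. All KO libraries lay below all controls, and replicate 3 was the lowest in both groups. The log2 fold change was -0.44 (SE 0.13, 95% interval -0.73 to -0.16), which is 73.6% of the control level, and it narrowly missed the threshold with edgeR adjusted p = 0.0602. With the replicate block it had adjusted p = 1.42e-05 in edgeR, and DESeq2 gave adjusted p = 0.0332, upper-quartile scaling 0.0491 and no filter on low counts 0.00137. Without both replicate 3 libraries the log2 fold change was -0.39 with edgeR adjusted p = 0.00184; without control replicate 3 the adjusted p was 0.0459, and without any other single library EGLN1 did not pass.

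EGLN2 (ENSG00000269858, chromosome 19, 40799191 to 40808434, plus strand) encodes PHD1. It had between 11 and 26 counts in a library, or 0.66, 0.59 and 1.11 CPM in control and 0.70, 0.57 and 1.32 CPM in KO, with replicate 3 the highest in both groups. The log2 fold change was 0.11 with a wide 95% interval of -0.84 to 1.05 (edgeR adjusted p = 0.909), so these counts leave room for sizeable changes in either direction. In GENCODE release 29, 66.6% of the exon bases of EGLN2 also belong to other genes on the same strand, chiefly the readthrough gene RAB4B-EGLN2, which has a row of its own with 0 counts in every library. How reads shared by several genes were treated is not given in the sources used here. The low count of EGLN2 can therefore not be read as a low level of its transcript.

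The estimated decrease of EGLN3 was larger than that of EGLN1. The log2 ratio of EGLN3 to EGLN1 counts within a library was -2.34, -2.66 and -2.82 in control and -4.07, -3.36 and -3.40 in KO. The groups did not overlap, and the mean ratio was lower in KO by 1.01 log2 units (exact two-sided permutation p = 0.10, and 0.30 adjusted over the 3 ratios tested). A p of 0.10 is the smallest this test allows with 3 libraries against 3, so it could not reach the threshold. The difference between the 2 genes was not tested in another way.

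For HIF1AN and VHL the groups overlapped, and their intervals leave room for only small changes. HIF1AN (ENSG00000166135, chromosome 10, 100535943 to 100559998, plus strand), also called FIH, measured 87.5, 87.2 and 91.9 CPM in control and 88.9, 84.4 and 90.6 CPM in KO. Its log2 fold change was -0.02 (SE 0.06, 95% interval -0.15 to 0.12, edgeR adjusted p = 0.908). This is the gene with 3 CCGGAA matches in the window printed above. VHL (ENSG00000134086, chromosome 3, 10141778 to 10153667, plus strand), the substrate receptor of the ligase, measured 140.3, 131 and 127 CPM in control and 125, 123 and 134 CPM in KO. Its log2 fold change was -0.06 (SE 0.06, 95% interval -0.20 to 0.09, edgeR adjusted p = 0.629). Neither gene passed in any of the alternatives.

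**Figure D2:**
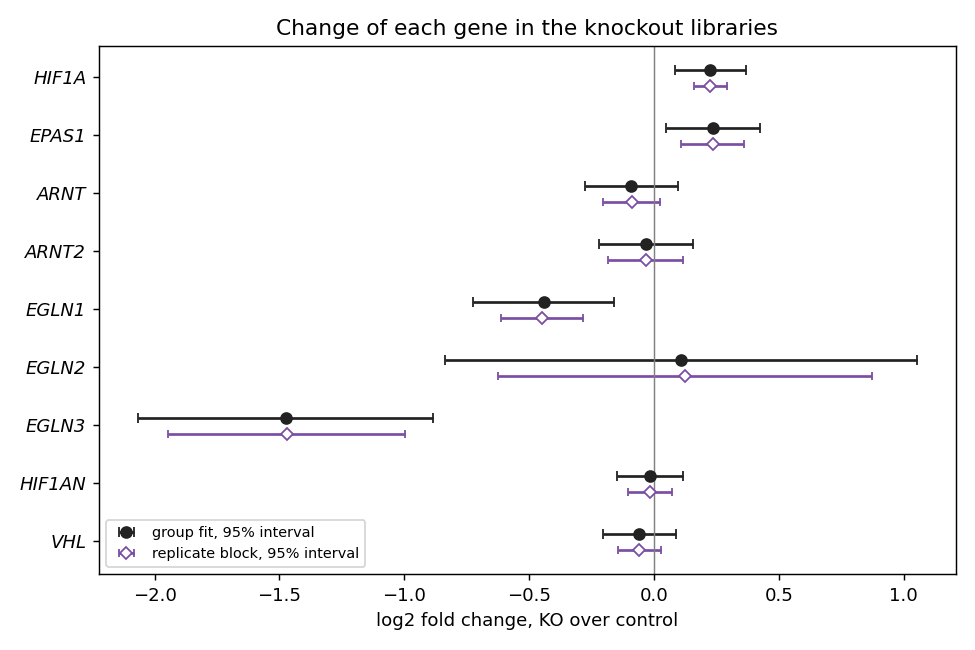
Log2 fold change of KO over control for each gene. Filled circles are the group comparison with its 95% interval, and open diamonds the fit with the replicate number as a block, also with its 95% interval. The estimates of both fits nearly coincide, and the intervals of all 9 genes are narrower with the block; EGLN2 has the widest interval (-0.84 to 1.05 in the group comparison).

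Within the pairs of libraries that carry the same replicate number, HIF1A and EPAS1 were higher and EGLN1 and EGLN3 lower in KO in 3 of 3 pairs. These 4 genes were taken for their lack of overlap between the groups, which fixes that direction in any pairing. The shared direction is therefore no further evidence, and only the sizes within pairs are described here. HIF1A was the steadiest, with log2 ratios of 0.21, 0.21 and 0.26 in pairs 1, 2 and 3. EPAS1 gave 0.01, 0.32 and 0.37. EGLN1 gave -0.37, -0.42 and -0.57, and EGLN3 gave -2.13, -1.14 and -1.17. Replicates 1 and 2 were not told apart by the correlations of libraries across groups, given below. The values of pairs 1 and 2 thus depend on the numbering. With the block, 4 of the 9 genes passed, 2 higher and 2 lower, where 33.9% of all genes passed (16.7% lower and 17.2% higher).

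**Figure D3:**
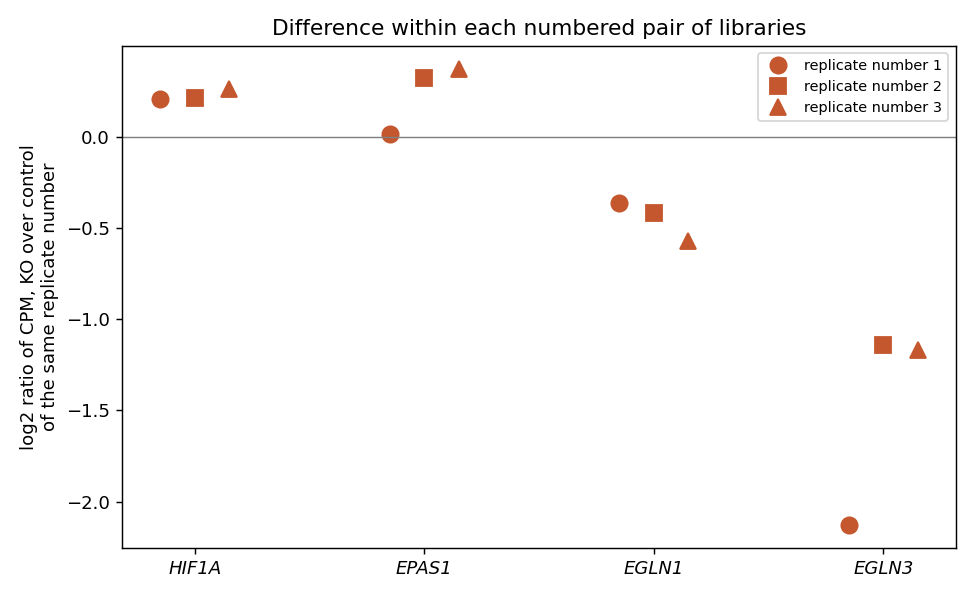
Log2 ratio of KO to control CPM within each pair of libraries of the same replicate number, for the 4 genes without overlap between the groups. Without overlap, the direction is the same in any pairing. Points of HIF1A and EPAS1 lie above 0 (EPAS1 in pair 1 at 0.01) and all points of EGLN1 and EGLN3 below 0, with EGLN3 lowest in pair 1 at -2.13. The values of pairs 1 and 2 depend on the numbering of replicates.

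Levels can be compared roughly between genes when divided by length, here CPM per kilobase of all exons of protein-coding transcripts in GENCODE. The annotation used for the counting is not given, so the exons counted may differ from these, and close ranks are uncertain. On that scale HIF1A was the highest in control with 86.8 ± 4.09 (SD, n = 3), followed by VHL with 35.5 ± 1.85. ARNT (10.5 ± 0.99), EPAS1 (7.58 ± 0.42) and HIF1AN (6.83 ± 0.20) formed a middle group. ARNT2 (3.32 ± 0.23) and EGLN1 (3.16 ± 0.27) differed by less than their spread, and EGLN3 stood at 0.77 ± 0.19. Thus EGLN1 was the most abundant of the prolyl hydroxylases for which counts can be read, EGLN2 being left out for its shared exons. In KO the order of ARNT and EPAS1 was not separable, with 9.83 ± 0.41 and 8.93 ± 0.80, and EGLN1 (2.32 ± 0.36) and EGLN3 (0.27 ± 0.06) were the genes furthest below their control level.

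Around these 9 genes, a list of the VHL ubiquitin ligase and other proteins that set HIF stability had 1 of 25 tested genes lower, 1 higher and 23 that did not pass, near the 9.70% called over all genes, with a median log2 fold change of 0.10. HSP90AA1, a chaperone that holds the alpha subunit, rose from 2484 ± 36.9 to 3198 ± 137.8 CPM (SD, n = 3, log2 fold change 0.36, edgeR adjusted p = 0.00864, and 0.0649 without control replicate 2). FKBP8, a membrane-anchored immunophilin known to bind PHD2, fell from 447.6 ± 20.2 to 368 ± 13.8 CPM (log2 fold change -0.28, edgeR adjusted p = 0.0257). FKBP8 did not pass when replicate 1 or 2 of either group was left out (highest edgeR adjusted p = 0.132). HSP90AB1 was the most abundant gene of the list that did not pass, with 2940.0 ± 48.1 and 3231 ± 86.3 CPM; with the replicate block it was higher (adjusted p = 5.49e-04 in edgeR). The partners of VHL in the ligase, ELOB, ELOC, CUL2 and RBX1, had log2 fold changes between 0.03 and 0.11, and none passed in the group comparison; ELOB passed with the block (adjusted p = 0.0489 in edgeR). With the block, 8 of the list were higher and 2 lower, where 17.2% of all genes were higher and 16.7% lower.

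Of 15 tested coactivators and CITED proteins, which compete for the same coactivators, 1 fell, 1 rose and 13 did not pass (median log2 fold change 0.13), against 9.70% called over all genes. CREBBP, the CBP acetyltransferase that the alpha subunits recruit, rose from 56.1 ± 0.60 to 68.4 ± 2.90 CPM (SD, n = 3, log2 fold change 0.29, edgeR adjusted p = 0.0200). The AP-1 subunit JUN fell from 305.7 ± 22.2 to 211 ± 28.01 CPM (log2 fold change -0.54, edgeR adjusted p = 0.0118). CREBBP did not pass when either of control replicates 1 and 2, or KO replicate 2, was left out (highest edgeR adjusted p = 0.0956), nor JUN without KO replicate 1 or 2 (highest edgeR adjusted p = 0.0603). PKM was the most abundant that did not pass (3188 ± 345 and 3093 ± 325 CPM). CITED2, itself a HIF target, had 276 ± 13.4 and 328 ± 25.6 CPM and did not pass (edgeR adjusted p = 0.0736), but did with the block (adjusted p = 4.11e-08 in edgeR). With the block 8 of this list were higher and 1 lower, where 17.2% of all genes were higher and 16.7% lower.

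In the bHLH-PAS family, to which the HIF subunits belong, 1 of 10 tested genes fell and 9 did not pass (median log2 fold change 0.09), near the 6.42% called lower over all genes. With the block CLOCK, which forms the same kind of pair with BMAL1 as NPAS2, was also called, as higher (log2 fold change 0.18, adjusted p = 0.0193 in edgeR). NPAS2, a clock factor that pairs with BMAL1, fell from 114 ± 7.72 to 63.4 ± 3.66 CPM (SD, n = 3, log2 fold change -0.84, SE 0.07, edgeR adjusted p = 3.08e-04). BMAL2 was the most abundant that did not pass, with 74.3 ± 5.58 and 77.1 ± 5.58 CPM, and AHR, which shares ARNT as its partner, had 66.6 ± 1.94 and 72.1 ± 5.07 CPM. HIF3A, the third alpha subunit gene, had no count in any library, where 3 counts would be worth between 0.128 and 0.165 CPM (a limit for counting error only).

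Most transcripts listed as HIF targets were lower in KO. Of 42 genes listed as HIF targets, 31 fell, 2 rose and 9 did not pass, where 6.42% of all genes fell and 3.28% rose, with a median log2 fold change of -0.57 against 0.00 over all genes. NDRG1, CA9, BNIP3 and ALDOC had the smallest adjusted p among those that fell, with log2 fold changes of -2.59, -3.59, -1.46 and -1.94. The vasodilator peptide gene ADM (0.39) and TFRC, the transferrin receptor of iron uptake, rose. TFRC measured 240, 249 and 239 CPM in control and 310, 329 and 317 CPM in KO (log2 fold change 0.39, edgeR adjusted p = 0.00383). GAPDH was the most abundant that did not pass (3394 ± 238 and 2959 ± 209 CPM, SD, n = 3), and it was lower with the block (adjusted p = 1.01e-06 in edgeR). SLC2A1 (425 ± 32.1 and 410 ± 17.9 CPM) and VEGFA (214 ± 22.8 and 218 ± 27.0 CPM), singled out after their values were seen, did not pass either.

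Set beside these 42, EGLN3 had a lower log2 fold change than all but 4 of them (CA9, NDRG1, ALDOC and PFKFB4), while 26 of the 42 were lower than EGLN1. The list was written with earlier results of these data known, so its direction is a description.

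**Figure D4:**
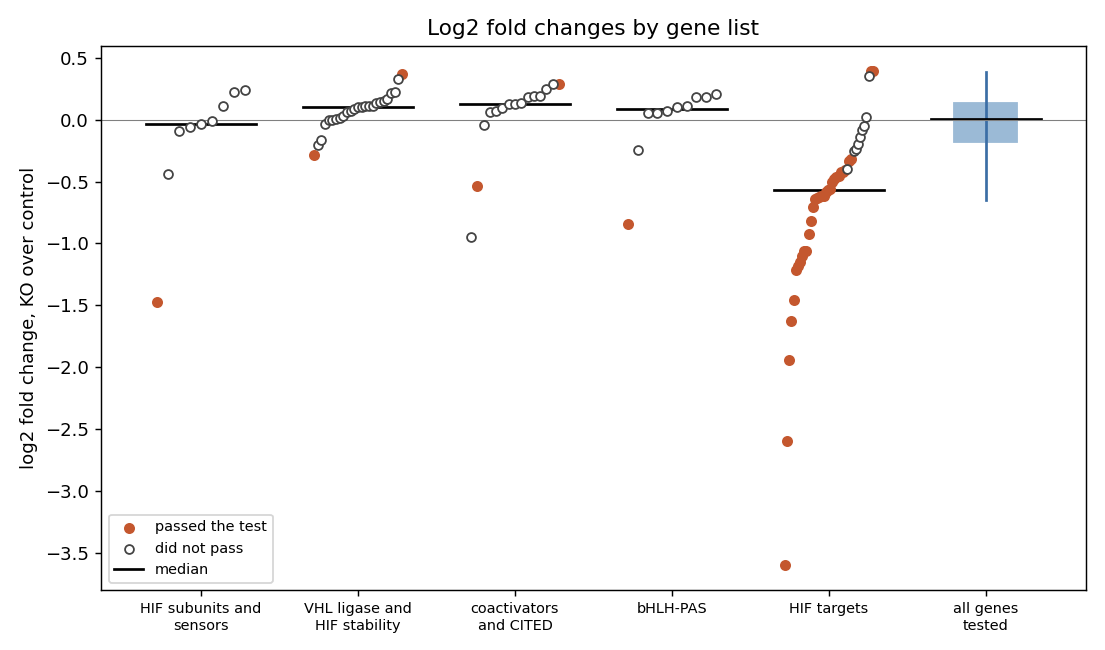
Log2 fold change (KO over control) of every tested gene in 5 groups, ordered by value within each, with the median as a black line; filled points passed the edgeR test. For all genes tested, the box spans the middle 50% (-0.18 to 0.14) and the line the 5th to 95th percentiles (-0.65 to 0.38). The HIF targets are centred at -0.57, the other groups between -0.03 and 0.13.

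The genes most like EGLN3 in their pattern over the 6 libraries, among 10808 tested genes with a mean of at least 5 CPM, were ADD3, HDAC11 and CDS2, each with a Pearson correlation of log2 CPM of 0.99. Their own log2 fold changes were -0.28, -0.77 and -0.11, of which those of ADD3 (edgeR adjusted p = 0.0246) and HDAC11 (edgeR adjusted p = 0.00844) passed the test. The 6 points share their libraries' scaling and fall into 2 groups, so this is a description and carries no test.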

How the data were processed

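RNA was measured in 3 control and 3 KO libraries of MDA-MB-231. The values the authors deposited are raw counts of reads per gene, made, per the submitters' processing notes, with STAR 2.7.9a and featureCounts on genome build hg38 (FastQC 0.11.9 and R 4.1.1 are also named). The sources used here give no gene annotation, strand setting or treatment of reads shared by genes. Groups and replicate numbers came from the sample titles, and columns were matched to samples by library name.

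Genes were kept by edgeR's filterByExpr (14704 of 61228), scaled with TMM and compared with the quasi-likelihood test (glmQLFit, robust, glmQLFTest; group as the single term), with Benjamini-Hochberg adjustment over all genes and a threshold of 0.05. CPM, fold changes, SE and 95% intervals were computed here with edgeR 4.0.16 in R 4.3.3. The alternatives also used DESeq2 1.42.0 and limma 3.58.1. Ratios within a library used counts plus 0.5 and an exact permutation test. Exon lengths and Ensembl identifiers are from GENCODE release 29, positions and promoters from RefSeq. The script was tested on simulated data with known changes in genes drawn from those tested. The edgeR test recovered 10% of the genes changed 1.25-fold and 52% of those changed 1.5-fold. It recovered 80% at 2-fold and 92% at 4-fold, with 50 genes changed at each fold. Of 14268 genes left unchanged, 27 were called, so the calls in the simulated data included false ones. A small change that did not pass can therefore not be read as absent.

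All 9 genes are named. From each list, the genes past the test are named if 6 or fewer in a direction, otherwise the 4 with the smallest adjusted p, with the most abundant gene that did not pass. 1 gene of the marker lists is not reported here. Members and lists were chosen with earlier results of these data known. In processing alternatives, the normalization, filter, model, replicate block and libraries were varied.

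Both groups carry replicate numbers 1 to 3. Deviations of same-numbered libraries from their group means correlated at 0.55, 0.45 and 0.83 over 10032 genes, each above 0.1. The labels do not say that these numbers mark a pairing, and the correlations match only replicate 3 across the groups. For replicates 1 and 2 a pairing by number is an assumption. Pairing by number was used in the replicate block, which is an alternative fit, and in the ratios within pairs. The group comparison had group as its single term, so its p-values take no account of pairing. Replicates 1 and 2 were not told apart by these correlations: across groups, 1 with 2 gave 0.59 and 2 with 1 gave 0.58.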

Additional observations from a re-analysis of the deposited data

How the results depend on the processing

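EGLN3 was called in all 14 alternative fits, with log2 fold changes between -1.66 and -1.28, and ARNT, ARNT2, HIF1AN, VHL and EGLN2 in none (EGLN2 was absent from the stricter filter). The counts of calls depended on the setting; the cause was not tested. Of the 9 genes, DESeq2 called 2 lower and 1 higher, total-count scaling 1 higher, upper-quartile scaling 2 lower, and no filter 2 lower. In the coactivator and CITED list, DESeq2 called 2 higher and no filter 3. With the replicate block, 4983 genes passed in all, among the 9 genes 2 lower and 2 higher. The block called 2 lower and 8 higher in the stability list, 8 higher in the coactivator and CITED list, and 1 bHLH-PAS gene higher. Among the 9 genes the block changed no call other than those of HIF1A, EPAS1 and EGLN1. With both replicate 3 libraries left out, 3754 genes passed, with 2 lower and 1 higher of the 9. In that fit 2 were lower and 4 higher in the stability list, and 5 higher in the coactivator and CITED list.

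With 1 library left out at a time, between 572 and 1741 genes passed (1427 with all), 1 to 2 of the 9 lower and 0 to 1 higher. Of the stability list, 0 to 1 were lower and 0 to 2 higher. Of the coactivator and CITED list, 0 to 1 were lower and 0 to 2 higher, and 24 to 32 HIF targets were lower. The fewest genes passed without control replicate 2 (572), control replicate 1 (591), KO replicate 2 (662) and KO replicate 1 (686). Small estimates changed sign in these fits: EGLN2 ran from -0.31 to 0.45, ARNT2 from -0.0707 to 0.0248, HIF1AN from -0.0288 to 0.0196, the ratio of EPAS1 to HIF1A from -0.0735 to 0.0747 and that of ARNT2 to ARNT from -0.0143 to 0.0964. Depth limits EGLN2 (11 to 26 counts) and EGLN3 (20 to 99 counts); counting error alone is covered by such limits.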

Other observations

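HIF1A-AS3, a noncoding RNA gene whose RefSeq span overlaps HIF1A, measured 7.37, 6.63 and 9.78 CPM in control and 3.48, 5.30 and 6.83 CPM in KO. The groups overlapped, and its log2 fold change of -0.61 did not pass (edgeR adjusted p = 0.154; adjusted p = 4.78e-04 with the replicate block), while HIF1A itself was 0.23 higher. Without the strand setting of the counting, reads of such overlapping genes cannot be told apart with certainty. HIF1A-AS1 was at 0.24 ± 0.16 and 0.23 ± 0.04 CPM (SD, n = 3), near the worth of 3 counts, and EGLN3-AS1 had no count in any library.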
